A study of Mus musculus with 27 samples.

Results

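Transcripts of ribosome biogenesis and targets of the transcription factor MYC were followed in NIH/3T3 cells, an established line of mouse embryonic fibroblasts, for 48 h after a pulse of forskolin. A list of 50 gene symbols was chosen for these functions, with earlier results of these data known. Shares of members set beside those of all genes therefore describe the list and are no independent test. A probe set belonged to the list where the platform annotation gave it 1 of these symbols. Of the 50 genes, 46 had a probe set and 45 had one bright enough to be tested, among 5643 tested genes in all. Npm3, Dkc1, Nob1 and Mina had no probe set, and the only probe set of Wdr12 was too dim. Total RNA was hybridised to 27 Affymetrix mouse U74v2 arrays, 1 per sample, from 3 experiments that the labels call biological replicates. In every experiment serum had been lowered in steps, after which cells received 15 µM forskolin, an activator of adenylyl cyclase, for 2 h in medium without serum, and stayed without serum after the rinse. The 0 h sample was taken at the end of the pulse and the other samples every 6 h up to 48 h, which gives 9 time points with 3 arrays each. All groups therefore share the pulse and the loss of serum, and no culture without forskolin was analysed here, so a comparison with 0 h is not a comparison with untreated cells. All comparisons with 0 h share the same 3 arrays of 0 h. The study asked which fibroblast transcripts follow a circadian course.

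Ribosomes are built in the nucleolus, where RNA polymerase I transcribes ribosomal DNA, small nucleolar ribonucleoproteins modify the precursor RNA, and a large set of assembly factors and helicases shapes it into the small and the large subunit. MYC, a transcription factor that growth factors in serum induce in fibroblasts, binds E-boxes and raises many of these genes together with genes of polyamine and nucleotide synthesis and of nuclear transport. This programme is known as a main consumer of energy in growing cells and is held low in resting ones.

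All levels are log2 intensities after quantile normalization, and a change is a difference of mean log2 levels ± SE with n = 3 arrays at each time. A gene is called at a Benjamini-Hochberg adjusted p below 0.05 in limma, over all probe sets tested, and "fell" and "rose" are used only of calls. The number of arrays limits the precision. The deposited arrays had been scaled to a common mean near 500.3, so a change in the total RNA per cell does not show, and fewer cells of a kind and less RNA per cell cannot be told apart. Arrays of 1 experiment deviated together from the time means, which makes the experiments pairs, and the first principal component, with 28.7% of the variance, set experiment 1 apart from experiments 2 and 3. The adjusted p with the experiment as a block is therefore given beside most results where it changes the call. Every SE is that of the fit without the block, also where a p with the block stands beside it. The actin 3′ to 5′ ratio, a sign of RNA quality, had time means between 1.36 and 1.51, equal at 0 h and 6 h. Of 14 fibroblast markers 13 were bright enough to test, with a summed intensity between 105531 and 141665 on the 27 arrays. Markers of leukocytes, epithelium, endothelium, skeletal muscle and neural cells reached at most 1814 for any list, and 11 of these 28 markers passed the brightness filter.

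The members were lower at 6 h than at the end of the pulse, and in experiments 2 and 3 the difference was smaller by 48 h. Of the 45 members, 37 had a lower mean at 6 h than at 0 h, and the median change was −0.43, against 0.01 over all 5643 genes. Abcf2, Nop56, Ddx21 and Srm fell at 6 h, which makes 4 of 45 members (2.53% of all genes fell). With the experiment as a block 18 of 45 fell (7.12% of all genes). The other 14 were Abce1, Bop1, Fbl, Ftsj3, Gar1, Gnl3, Nhp2, Nme1, Nop58, Odc1, Ran, Ranbp1, Rrs1 and Utp20. No member rose at 6 h in either fit, whereas 4.11% of all genes did without the block and 10.9% with it. Without experiment 2 and without experiment 3 the count was 1 in each case, and it was 5 without experiment 1. The shares of all genes called in either direction in these refits were 2.18%, 1.68% and 4.96%, against 6.65% on all arrays. With the block the member counts were 9, 8 and 17, and the shares were 8.65%, 8.79% and 12.4%, against 18%. The limma count at an unadjusted p below 0.05 was 20 of 45 members, against 1049 of 5643 genes.

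The 3 experiments differed in the depth of the drop. The median of the members' changes from the 0 h array of the same experiment was −0.16 in experiment 1, −0.55 in experiment 2 and −0.39 in experiment 3, a mean of −0.37 ± 0.20 (SD, n = 3). At 12 h the same medians were −0.22, −0.36 and −0.32, at 24 h −0.10, −0.19 and −0.23, and at 48 h −0.15, −0.05 and −0.18. All 24 medians but that of experiment 1 at 42 h, at 0.02, lay below 0. Among members, 26 were lower at 6 h in all 3 experiments (25.4% of all genes). For 16 members the 3 arrays of 6 h all lay below the 3 arrays of 0 h (10.3% of all genes), and for 0 members all lay above (13.4%).

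**Figure D1:**
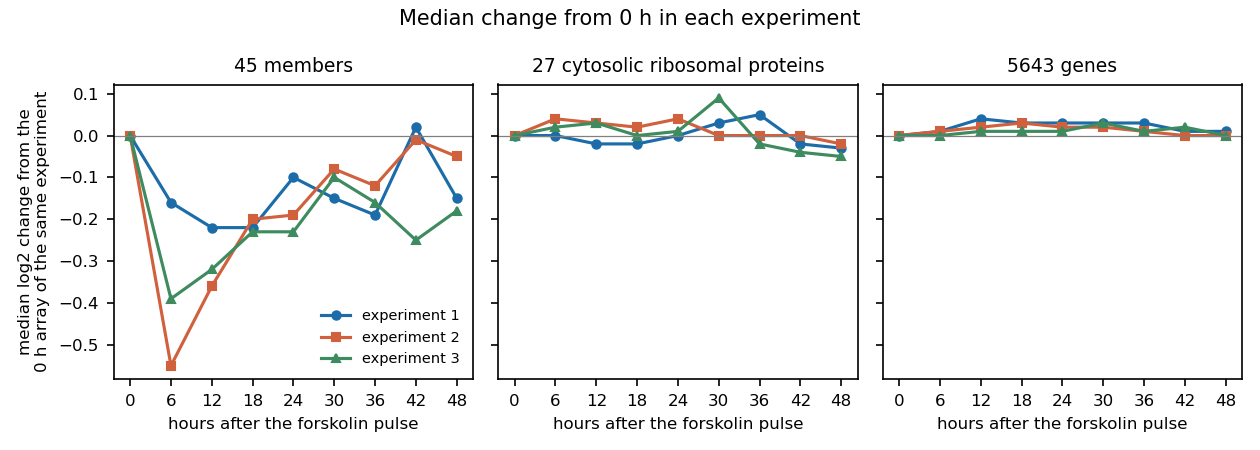
Median log2 change from the 0 h array of the same experiment (y axis) against hours after the pulse (x axis), for the 45 members, 27 cytosolic ribosomal protein genes and all 5643 genes, with 1 line per experiment. The members drop to between −0.16 and −0.55 at 6 h, while the mean of the ribosomal protein medians at 6 h is 0.02 ± 0.02 (SD, n = 3).

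The drop was followed by a slow return in experiments 2 and 3, while the members' median in experiment 1 was −0.16 at 6 h and −0.15 at 48 h. At 12 h, 6 members had fallen against 0 h (3.76% of all genes) and 13 with the block (9.85%), with a median change of −0.23. The 6 were Abcf2, Ddx21, Ebna1bp2, Nhp2, Nop56 and Ran. Without experiment 2 the count at 12 h was 2 (2.94% of all genes called in either direction) and without experiment 3 it was 0 (2.3%). With the block it was 8 (11.2%) and 6 (10.8%). At 18 h, 2 members had fallen (3.69%), Nop56 and Ran, and 9 with the block (9.66%). At 24 h only Ran had fallen (2.91%), a call lost without experiment 1 and without experiment 3. With the block 6 members had fallen (8.36%), or 2 without experiment 3 (9.3% of all genes called in either direction). From 30 h on the shares lay at or near those of all genes. At 30 h no member had fallen (3.03%), nor had any at 36 h (3.69%). At 42 h 1 had (3.3%), and at 48 h again none (3.31%). With the block they were 3 (8.22%), 4 (8.81%), 4 (9.43%) and 6 (9.59%). The last was 3 without experiment 2 and without experiment 3 (12.1% and 10.7% of all genes called in either direction). Without experiment 1 the blocked fit at 48 h called 3 members lower and 1 higher (17.7%). By limma at an unadjusted p below 0.05 the counts were 5 members at 30 h, 6 at 36 h and 6 at 48 h, against 1058, 1083 and 1154 genes. On all arrays no member rose against 0 h at any time in either fit. In 6 h steps from 12 h on the shares of all genes that rose without the block were 4.84%, 4.43%, 4.43%, 3.92%, 4.13%, 4.16% and 4.98%. With the block these shares were 11.8%, 11.3%, 11.5%, 10.5%, 10.1%, 10.6% and 11.4%. Refits without 1 experiment were made for 6 h, 12 h, 24 h and 48 h.

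**Figure D2:**
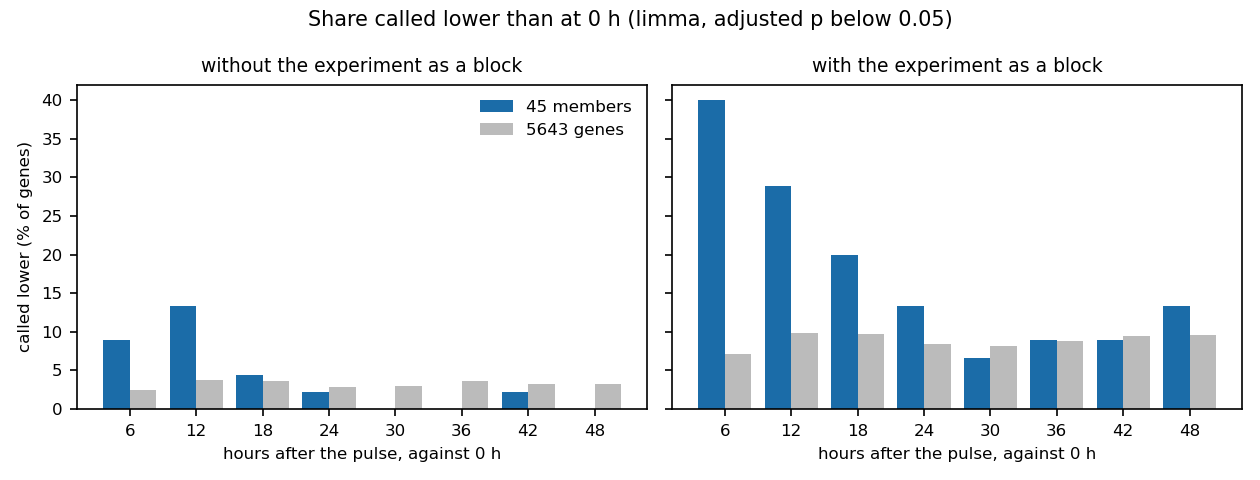
Share of the 45 members (blue) and of 5643 genes (grey) that were lower than at 0 h at an adjusted p below 0.05 in limma, in percent, at each later time, without and with the experiment as a block. The members' share at 6 h is 8.89% without the block and 40% with it, and from 30 h on it lies near the grey bars or below them.

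Seen over the whole course, Nop56 and Ddx21 varied between the 9 time points (7.89% of all genes), and 22 members did with the block (28.2%). Without experiment 2 or experiment 3 the count without the block was 0 (1.59% and 0.478% of all genes). With the block it was 5 in each case (10.7% and 8.06%) and 13 without experiment 1 (21.8%). The lowest of the 9 means stood at 6 h for 17 members (15.2% of all genes) and at 12 h for 9 (12.1%). The highest mean stood at 0 h for 16 members (20.7%) and at 42 h or 48 h for 12, which is 26.7% of members and 20.2% of all genes. The 42 h mean was the highest of the course for 9 members, Ddx21, Ftsj3, Gar1, Gnl3, Myc, Nop58, Pa2g4, Polr1d and Srm (8.81%).

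**Figure D3:**
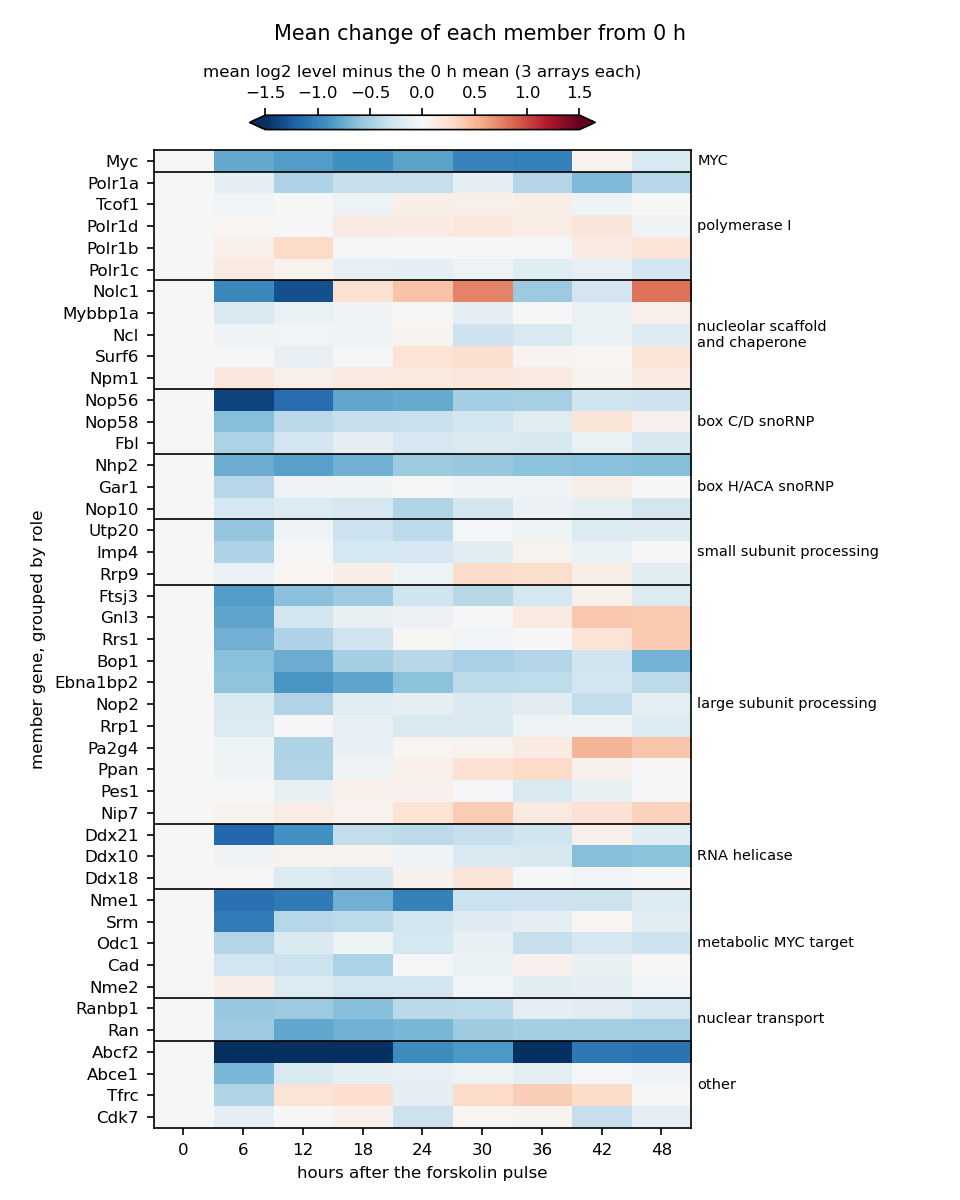
Mean log2 level of each of the 45 members at each time point (x axis, hours after the pulse) minus its 0 h mean, with 3 arrays per mean, grouped by role; blue is lower and red higher than at 0 h, and the colour scale ends at 1.5. Blue prevails at 6 h and 12 h in the snoRNP, transport and metabolic groups, and the polymerase I group lies between −0.14 and 0.13 at 6 h.

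Promoter sequence was compared because MYC binds E-boxes, so that members with and without one can be set beside their change. RefSeq promoters (mouse GRCm38.p6, 250 bases before to 50 after the start) were at hand for 42 of the 50 genes, and not for Myc, Srm, Npm1, Fbl, Bop1, Rrs1, Tcof1 and Mina. The E-box CACGTG, the same on both strands, stood in 8 of the 42 (19.0%), against 11.4% of 6577 genes with a probe set and 8.09% of 27025 genes with a promoter. The 8 were Mybbp1a, Imp4, Utp20, Pes1, Nop2, Nme1, Ran and Cdk7. The variant CACGCG, searched on both strands, stood in 16 (38.1%), against 17.9% and 10.5%, and the cAMP response element TGACGTCA in 2 (4.76%), Ppan and Abce1, against 3.16% and 2.03%. These shares describe letters in a window and not bound sites, and the motifs were searched with no allowance for base composition. Of the 8 members with CACGTG, all measured, 3 fell at 6 h with the block and 0 without it, with a median change of −0.35. Of the 30 measured members with a promoter and no CACGTG, 11 fell with the block and 3 without it, with a median of −0.27. Of the 16 with the variant, 6 fell with the block and 2 without the block, with a median of −0.35. Of the 22 measured members with a promoter and no variant, 8 fell with the block and 1 without the block, with a median of −0.25.

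The bases upstream of the start are printed for 4 members lower at 6 h with the block, Ran and Nme1 with a CACGTG and Nop56 and Ddx21 with none, each 5′ to 3′ on the strand of its gene. Capitals mark CACGTG and CACGCG, the latter on either strand (CGCGTG). Nme1 has 2 annotated starts, and its E-boxes begin at positions −18 and −29 from them, while that of Ran begins at −118 from its start.
Ran, chr5:129019906-129020155, plus strand: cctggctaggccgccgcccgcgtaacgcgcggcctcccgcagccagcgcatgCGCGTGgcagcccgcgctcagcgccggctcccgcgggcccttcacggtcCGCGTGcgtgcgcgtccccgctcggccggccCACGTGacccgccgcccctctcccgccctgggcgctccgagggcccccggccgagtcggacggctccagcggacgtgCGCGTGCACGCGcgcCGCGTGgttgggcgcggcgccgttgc
Nme1, first start, chr11:93968273-93968522, minus strand: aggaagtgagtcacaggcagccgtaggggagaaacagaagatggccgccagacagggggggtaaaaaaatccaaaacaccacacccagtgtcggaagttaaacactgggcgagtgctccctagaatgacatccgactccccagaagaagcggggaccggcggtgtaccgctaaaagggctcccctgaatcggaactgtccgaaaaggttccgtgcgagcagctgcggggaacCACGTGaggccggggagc
Nme1, second start, chr11:93968026-93968275, minus strand: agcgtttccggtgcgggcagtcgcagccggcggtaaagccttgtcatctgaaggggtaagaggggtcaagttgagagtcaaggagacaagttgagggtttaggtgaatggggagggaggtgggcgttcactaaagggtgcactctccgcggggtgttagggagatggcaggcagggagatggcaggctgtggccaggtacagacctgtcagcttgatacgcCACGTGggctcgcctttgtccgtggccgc
Nop56, chr2:130274162-130274411, plus strand: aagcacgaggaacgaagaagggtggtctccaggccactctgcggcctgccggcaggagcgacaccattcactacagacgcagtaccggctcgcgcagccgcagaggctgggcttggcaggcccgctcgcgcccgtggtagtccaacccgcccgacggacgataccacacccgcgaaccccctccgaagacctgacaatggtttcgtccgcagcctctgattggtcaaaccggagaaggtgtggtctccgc
Ddx21, chr10:62602299-62602548, minus strand: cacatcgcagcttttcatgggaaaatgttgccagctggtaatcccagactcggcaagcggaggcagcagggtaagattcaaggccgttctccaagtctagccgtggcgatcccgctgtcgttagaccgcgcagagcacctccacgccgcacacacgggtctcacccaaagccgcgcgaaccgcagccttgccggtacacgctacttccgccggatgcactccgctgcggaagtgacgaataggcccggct
Ran holds 1 CACGTG and 5 copies of the variant upstream, Nme1 1 CACGTG before each start, and the printed bases of Nop56 and Ddx21 hold neither. Ddx21 has 1 copy of the variant in the 50 bases after its start, which are not printed. The changes at 6 h were −0.55 for Ran, −1.12 for Nme1, −1.38 for Nop56 and −1.18 for Ddx21.

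In the values that follow, the 3 numbers at each time are the log2 intensities of experiments 1, 2 and 3 in that order. Myc measured 8.99, 7.77 and 7.12 at 0 h, 7.33, 7.14 and 7.08 at 6 h, 7.22, 7.14 and 7.0 at 12 h and 7.06, 7.16 and 6.89 at 18 h. The later Myc arrays gave 7.06, 7.15 and 7.26 at 24 h, 6.96, 7.02 and 6.88 at 30 h, 7.13, 7.04 and 6.66 at 36 h, 8.92, 7.37 and 7.76 at 42 h and 7.90, 7.53 and 7.76 at 48 h. The 0 h arrays of Myc, the regulator of the programme, spread widely, and every array from 6 h to 36 h lay between 6.66 and 7.33. All 6 arrays of 42 h and 48 h stood above that range, while the 0 h array of experiment 3 lay inside it, so 0 h and 6 h overlapped. The change at 6 h was −0.77 ± 0.35, or −1.66, −0.63 and −0.04 in the 3 experiments (adjusted p = 0.243), and the level at 6 h was 58.5% of that at 0 h. With the block Myc was called over time (adjusted p = 0.0201, against 0.144 without it) and fell by 1.01 ± 0.35 at 36 h (adjusted p = 0.0208, against 0.0908). It was also called lower with the block at 18 h (adjusted p = 0.0334, against 0.124) and at 30 h (adjusted p = 0.023, against 0.0978). From 24 h to 48 h Myc changed by 0.57 ± 0.35 (adjusted p = 0.999), with all 3 arrays of 48 h above all 3 of 24 h, as for 3 members in all (4.66% of all genes).

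The 5 genes of the polymerase I machinery stayed near their 0 h level at 6 h, with a median change of 0.04 and 0 calls in either fit; at an unadjusted p below 0.05 limma gave 0 as well, and the smallest adjusted p was 0.769. Polr1a measured 8.99, 8.87 and 9.02 at 0 h, 8.83, 8.66 and 8.98 at 6 h, 8.14, 8.70 and 8.67 at 12 h and 8.57, 8.57 and 8.73 at 18 h. The later Polr1a arrays gave 8.45, 8.59 and 8.78 at 24 h, 8.94, 8.80 and 8.73 at 30 h, 8.60, 8.52 and 8.45 at 36 h, 8.52, 8.16 and 8.24 at 42 h and 8.67, 8.58 and 8.34 at 48 h. Polr1a, the largest subunit, was lower than every 0 h array on all arrays of 12 h, 18 h, 24 h, 36 h, 42 h and 48 h, and overlapped 0 h at 6 h and 30 h. It fell by 0.66 ± 0.16 at 42 h (adjusted p = 0.0117), the only member to do so without the block, and with the block it was also called lower at 12 h and at 48 h. Its change at 48 h was −0.43 ± 0.16 (adjusted p = 0.0497 with the block, against 0.113). Polr1d measured 9.42, 8.98 and 8.89 at 0 h, 9.36, 9.0 and 9.04 at 6 h, 9.19, 9.0 and 9.11 at 12 h and 9.49, 9.08 and 9.09 at 18 h. The later Polr1d arrays gave 9.67, 9.04 and 8.94 at 24 h, 9.46, 9.25 and 9.07 at 30 h, 9.51, 9.05 and 9.09 at 36 h, 9.62, 9.22 and 9.0 at 42 h and 9.24, 8.93 and 8.99 at 48 h. Polr1d, a subunit shared with RNA polymerase III, had experiment 1 highest at every time, and its time points overlapped. Polr1c, the other shared subunit, ranged from 9.47 through a median of 10.03 to 10.40 over the 27 arrays and changed by 0.13 ± 0.19 at 6 h. Polr1b, the second-largest subunit, ranged from 7.82 through a median of 8.36 to 8.87 and changed by 0.08 ± 0.21. Tcof1, the treacle gene, whose product recruits the machinery to ribosomal DNA, ranged from 9.14 through a median of 9.47 to 9.75 and changed by −0.04 ± 0.15.

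Nucleolar scaffold and chaperone genes had a median change of −0.05 at 6 h, and 0 of 5 were called in either fit, with 0 at an unadjusted p below 0.05 in limma. Npm1 measured 13.64, 13.29 and 13.33 at 0 h, 13.80, 13.38 and 13.54 at 6 h, 13.54, 13.47 and 13.49 at 12 h and 13.63, 13.57 and 13.50 at 18 h. The later Npm1 arrays gave 13.67, 13.60 and 13.43 at 24 h, 13.88, 13.52 and 13.38 at 30 h, 13.90, 13.38 and 13.35 at 36 h, 13.74, 13.42 and 13.25 at 42 h and 13.85, 13.63 and 13.15 at 48 h. Npm1, nucleophosmin, was the only member higher at 6 h in all 3 experiments (27.7% of all genes), by 0.16 ± 0.17 (adjusted p = 0.749), and its arrays of the 2 times overlapped. Nolc1 measured 7.48, 5.52 and 7.64 at 0 h, 7.02, 5.50 and 5.21 at 6 h, 6.23, 5.27 and 5.17 at 12 h and 7.25, 6.77 and 7.32 at 18 h. The later Nolc1 arrays gave 7.58, 8.02 and 6.33 at 24 h, 7.06, 7.87 and 7.94 at 30 h, 6.88, 5.81 and 6.31 at 36 h, 7.57, 5.71 and 6.47 at 42 h and 7.67, 7.46 and 7.98 at 48 h. Nolc1, a chaperone of small nucleolar ribonucleoproteins, was dim, with 12 of 27 arrays below 6.77, the lowest mean that the brightness filter kept, so the size of its changes is uncertain. Its 6 h and 12 h arrays were the lowest in experiments 2 and 3, the 48 h arrays were all at 7.46 or more, and the arrays of 0 h and 6 h overlapped. The change at 6 h was −0.97 ± 0.57 (adjusted p = 0.429), and over time Nolc1 was called with the block (adjusted p = 0.0146, against 0.102). Mybbp1a measured 8.55, 8.57 and 8.23 at 0 h, 8.55, 8.27 and 7.87 at 6 h, 8.61, 8.02 and 8.42 at 12 h and 8.45, 8.58 and 8.16 at 18 h. The later Mybbp1a arrays gave 8.53, 8.51 and 8.33 at 24 h, 8.23, 8.33 and 8.36 at 30 h, 8.66, 8.16 and 8.49 at 36 h, 8.43, 8.84 and 7.77 at 42 h and 8.86, 8.15 and 8.59 at 48 h. Mybbp1a, a nucleolar repressor of polymerase I transcription, varied without a common course, and its changes at 6 h were 0.00, −0.31 and −0.37 in the 3 experiments. Ncl, nucleolin, ranged from 11.92 through a median of 12.37 to 12.65 and changed by −0.05 ± 0.16 at 6 h. Surf6, a nucleolar matrix protein gene, ranged from 6.53 through a median of 7.17 to 7.74 and changed by 0.00 ± 0.31.

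The 3 core proteins on the list from the box C/D particles, which guide methylation of ribosomal RNA, were all lower at 6 h, with a median change of −0.64. Nop56 fell, and Nop58 and Fbl fell with the block, so that 3 of 3 were called in that fit. Nop56 measured 9.90, 9.86 and 9.58 at 0 h, 8.42, 8.68 and 8.11 at 6 h, 8.94, 8.62 and 8.37 at 12 h and 9.20, 8.77 and 9.03 at 18 h. The later Nop56 arrays gave 9.38, 9.22 and 8.47 at 24 h, 9.18, 9.57 and 9.06 at 30 h, 8.91, 9.61 and 9.34 at 36 h, 9.61, 9.65 and 9.17 at 42 h and 9.23, 9.78 and 9.38 at 48 h. Every array of 6 h lay below every array of 0 h, the nearest pair being 8.68 and 9.58, and the arrays of 42 h and 48 h overlapped those of 0 h. Nop56 fell by 1.38 ± 0.24 at 6 h (adjusted p = 0.000664), to 38.5% of the 0 h level, and fell by 1.14 ± 0.24 at 12 h (adjusted p = 0.00387). Its change at 6 h was −1.48, −1.18 and −1.46 in the 3 experiments and stayed called in each refit without 1 of them, which held for none of the other 3 calls at 6 h, with adjusted p up to 0.0312. The 12 h call was lost without experiment 2 (adjusted p = 0.0767) and without experiment 3 (adjusted p = 0.0577). At 24 h the change was −0.76 ± 0.24 (adjusted p = 0.0589; with the block, 0.0074).

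Nop58 measured 9.12, 8.63 and 8.36 at 0 h, 8.33, 7.97 and 7.88 at 6 h, 8.52, 8.23 and 8.12 at 12 h and 8.62, 8.43 and 8.0 at 18 h. The later Nop58 arrays gave 8.46, 8.51 and 8.14 at 24 h, 8.49, 8.56 and 8.21 at 30 h, 8.24, 8.90 and 8.41 at 36 h, 8.97, 9.16 and 8.50 at 42 h and 8.72, 8.89 and 8.68 at 48 h. Nop58, the partner of Nop56, was lowest at 6 h in experiments 2 and 3, and its 6 h and 0 h arrays did not overlap. It changed by −0.64 ± 0.22 (adjusted p = 0.102; with the block, 0.00942) at 6 h, and its probe set is of a class that can share probes with a sequence family. Fbl, fibrillarin, the methyltransferase of the particle, ranged from 10.71 through a median of 11.03 to 11.74 over the 27 arrays. Its changes at 6 h were −0.25, −0.62 and −0.59, a mean of −0.49 ± 0.24 (adjusted p = 0.302; with the block, 0.00161).

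Of the proteins from the box H/ACA particles, which guide pseudouridylation, Nhp2 and Gar1 fell at 6 h with the block. Without it 0 of 3 fell, and limma gave 2 at an unadjusted p below 0.05. The median change was −0.43. Nhp2 measured 10.47, 10.64 and 10.13 at 0 h, 9.43, 10.09 and 9.47 at 6 h, 9.46, 9.90 and 9.41 at 12 h and 9.63, 9.95 and 9.49 at 18 h. The later Nhp2 arrays gave 9.79, 10.17 and 9.67 at 24 h, 9.75, 10.35 and 9.41 at 30 h, 9.71, 9.87 and 9.79 at 36 h, 9.89, 10.18 and 9.27 at 42 h and 9.59, 10.02 and 9.71 at 48 h. Nhp2 stood below its 0 h level in every experiment at every later time, and only the 24 h, 30 h and 42 h arrays of experiment 2 reached into the 0 h range. It changed by −0.75 ± 0.25 (adjusted p = 0.0755; with the block, 0.000397) at 6 h and fell by 0.82 ± 0.25 at 12 h (adjusted p = 0.038), a call lost without experiment 1 (adjusted p = 0.274) and without experiment 3 (adjusted p = 0.157). At 48 h it still differed by −0.64 ± 0.25 (adjusted p = 0.128; with the block, 0.00141). Gar1 ranged from 9.42 through a median of 9.97 to 10.45, with all 6 h arrays below all 0 h arrays, and changed by −0.43 ± 0.18 (adjusted p = 0.18; with the block, 0.0163) at 6 h and by −0.08 ± 0.18 at 12 h. Nop10 ranged from 10.57 through a median of 10.95 to 11.41, changed by −0.26 ± 0.21 at 6 h and by −0.45 ± 0.21 (adjusted p = 0.237; with the block, 0.0086) at 24 h.

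Of 3 factors of small subunit processing, 0 were called at 6 h without the block, where limma gave 2 at an unadjusted p below 0.05, and Utp20 fell with it, with a median change of −0.47. Utp20 measured 9.51, 9.41 and 9.18 at 0 h, 8.81, 8.79 and 8.73 at 6 h, 9.78, 9.01 and 9.09 at 12 h and 9.06, 9.11 and 8.96 at 18 h. The later Utp20 arrays gave 9.14, 8.93 and 8.84 at 24 h, 9.48, 9.39 and 9.14 at 30 h, 9.23, 9.48 and 9.20 at 36 h, 9.31, 9.25 and 8.89 at 42 h and 9.32, 9.35 and 8.83 at 48 h. Utp20, a component of the small subunit processome, had all 6 h arrays below all 0 h arrays, by −0.59 ± 0.19 (adjusted p = 0.0647; with the block, 0.00486), and its 12 h arrays overlapped 0 h again. Imp4, another processome protein, ranged from 8.85 through a median of 9.29 to 9.90, with no overlap between 6 h and 0 h and a change of −0.47 ± 0.21 (adjusted p = 0.236; with the block, 0.0988). Rrp9, which binds the U3 particle, ranged from 9.06 through a median of 9.44 to 9.86 and changed by −0.11 ± 0.16. It was called over time only with the block (adjusted p = 0.0278, against 0.562).

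Large subunit factors were the biggest group, with 11 members, 10 of them lower at 6 h and a median change of −0.23. None was called at 6 h without the block, where limma gave 5 at an unadjusted p below 0.05, and Ftsj3, Gnl3, Rrs1 and Bop1 fell with it. Ftsj3 measured 8.16, 7.36 and 7.61 at 0 h, 7.21, 6.80 and 6.59 at 6 h, 7.46, 6.87 and 6.90 at 12 h and 7.32, 6.87 and 7.28 at 18 h. The later Ftsj3 arrays gave 7.54, 7.40 and 7.29 at 24 h, 7.78, 7.06 and 7.02 at 30 h, 7.74, 7.24 and 7.36 at 36 h, 8.19, 7.52 and 7.61 at 42 h and 7.70, 7.36 and 7.47 at 48 h. Ftsj3, a nucleolar methyltransferase, was lowest at 6 h in every experiment, without overlap with 0 h, and the change was −0.84 ± 0.27 (adjusted p = 0.0697; with the block, 0.00177). A second probe set of Ftsj3, too dim to test at a mean of 6.38, changed by 0.36 at 6 h and 1.24 at 48 h. Gnl3 measured 8.54, 8.12 and 7.28 at 0 h, 7.24, 7.28 and 7.05 at 6 h, 8.07, 7.49 and 7.55 at 12 h and 8.17, 7.83 and 7.62 at 18 h. The later Gnl3 arrays gave 7.93, 8.05 and 7.70 at 24 h, 7.99, 8.36 and 7.60 at 30 h, 8.09, 8.48 and 7.81 at 36 h, 8.71, 8.29 and 8.15 at 42 h and 8.75, 8.07 and 8.28 at 48 h. Gnl3, nucleostemin, was lowest at 6 h in every experiment but overlapped 0 h, since the 0 h array of experiment 3 was low at 7.28. It changed by −0.79 ± 0.28 (adjusted p = 0.111; with the block, 0.0115) at 6 h, and at 42 h its mean of 8.38 was the highest of the course.

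Rrs1 measured 9.60, 8.91 and 8.83 at 0 h, 8.76, 8.16 and 8.27 at 6 h, 8.94, 8.76 and 8.28 at 12 h and 8.94, 8.55 and 8.96 at 18 h. The later Rrs1 arrays gave 9.06, 9.44 and 8.91 at 24 h, 8.82, 9.43 and 9.0 at 30 h, 9.12, 9.35 and 8.86 at 36 h, 9.33, 9.51 and 9.15 at 42 h and 9.11, 9.62 and 9.80 at 48 h. Rrs1, a large subunit assembly factor, was lowest at 6 h in every experiment, with no overlap with 0 h, and the 48 h arrays of experiments 2 and 3 were above all their earlier ones. It changed by −0.72 ± 0.24 (adjusted p = 0.0881; with the block, 0.0311) at 6 h. Ebna1bp2 measured 7.94, 8.98 and 8.69 at 0 h, 8.16, 7.66 and 8.01 at 6 h, 7.26, 7.79 and 7.96 at 12 h and 7.40, 7.68 and 8.16 at 18 h. The later Ebna1bp2 arrays gave 7.74, 8.0 and 8.06 at 24 h, 7.90, 8.54 and 8.02 at 30 h, 8.12, 8.27 and 8.09 at 36 h, 8.20, 8.54 and 8.01 at 42 h and 7.94, 8.44 and 8.07 at 48 h. Ebna1bp2, another assembly factor, had its lowest mean at 12 h, and its 6 h arrays overlapped 0 h because the 0 h array of experiment 1 was low at 7.94. It fell by 0.87 ± 0.26 at 12 h (adjusted p = 0.0403), a call lost without experiment 2 (adjusted p = 0.32) and without experiment 3 (adjusted p = 0.272).

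Bop1, Pes1 and Wdr12 form 1 complex of large subunit maturation. Bop1 ranged from 7.40 through a median of 8.55 to 9.10 and changed by −0.63 ± 0.28 (adjusted p = 0.238; with the block, 0.0313) at 6 h and by −0.71 ± 0.28 (adjusted p = 0.146; with the block, 0.0131) at 48 h. Its partner Pes1 ranged from 7.76 through a median of 8.22 to 8.55 and changed by −0.01 ± 0.18 at 6 h (adjusted p = 0.991), and Wdr12 was too dim to test. Nop2, a methyltransferase of the large subunit RNA, changed by −0.23 ± 0.20 at 6 h and by −0.44 ± 0.20 (adjusted p = 0.2; with the block, 0.0231) at 12 h. Rrp1 changed by −0.22 ± 0.16 at 6 h, Ppan by −0.05 ± 0.23 and Nip7 by 0.05 ± 0.17. All 48 h arrays of Nip7 lay above all 0 h arrays (12.1% of all genes), with a change of 0.35 ± 0.17 (adjusted p = 0.27; with the block, 0.092). Pa2g4, a growth-regulating protein of nucleolar particles, changed by −0.07 ± 0.44 at 6 h and was called over time only with the block (adjusted p = 0.032).

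The 3 RNA helicases took separate courses. Ddx21 measured 10.36, 9.39 and 9.22 at 0 h, 8.86, 8.29 and 8.28 at 6 h, 9.28, 8.43 and 8.55 at 12 h and 9.63, 8.85 and 9.39 at 18 h. The later Ddx21 arrays gave 9.26, 9.37 and 9.17 at 24 h, 9.34, 9.25 and 9.38 at 30 h, 9.62, 9.04 and 9.43 at 36 h, 10.17, 9.49 and 9.56 at 42 h and 9.73, 9.11 and 9.66 at 48 h. Ddx21, which promotes ribosomal RNA transcription and processing, was lowest at 6 h in every experiment, and no 6 h array reached a 0 h array. It fell by 1.18 ± 0.28 at 6 h (adjusted p = 0.0115), to 44.1% of the 0 h level, and fell by 0.91 ± 0.28 at 12 h (adjusted p = 0.0493). The 6 h call was lost without experiment 2 (adjusted p = 0.103) and without experiment 3 (adjusted p = 0.173), as was the 12 h call, at 0.238 and 0.289. Ddx10 measured 8.0, 7.89 and 7.77 at 0 h, 7.94, 8.11 and 7.47 at 6 h, 8.05, 8.07 and 7.68 at 12 h and 7.89, 7.86 and 8.08 at 18 h. The later Ddx10 arrays gave 7.91, 7.60 and 7.93 at 24 h, 7.56, 7.85 and 7.56 at 30 h, 7.66, 7.48 and 7.80 at 36 h, 6.68, 7.43 and 7.64 at 42 h and 7.13, 7.26 and 7.41 at 48 h. Ddx10, a helicase of small subunit processing, held near its 0 h level up to 24 h and had all arrays of 42 h and 48 h below all arrays of 0 h. It changed by −0.05 ± 0.22 at 6 h and by −0.62 ± 0.22 (adjusted p = 0.0996; with the block, 0.0474) at 48 h. Ddx18 ranged from 8.99 through a median of 9.53 to 9.88 and changed by 0.02 ± 0.19 at 6 h.

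Among 5 metabolic MYC targets the median change at 6 h was −0.44, and Srm fell without the block and Nme1, Odc1 and Srm with it. Srm measured 9.69, 9.75 and 9.05 at 0 h, 8.92, 8.56 and 7.87 at 6 h, 9.24, 9.27 and 8.70 at 12 h and 9.39, 9.32 and 8.62 at 18 h. The later Srm arrays gave 9.61, 9.42 and 8.66 at 24 h, 9.06, 9.76 and 9.10 at 30 h, 9.59, 9.19 and 9.25 at 36 h, 9.71, 9.74 and 9.14 at 42 h and 9.59, 9.50 and 8.91 at 48 h. Srm, spermidine synthase, was lowest at 6 h in every experiment, at 8.92 or less against 9.05 or more at 0 h, and experiment 3 ran below the others at most times. It fell by 1.05 ± 0.30 (adjusted p = 0.0403), to 48.4% of the 0 h level. The call was lost without experiment 1 (adjusted p = 0.0991), experiment 2 (adjusted p = 0.376) or experiment 3 (adjusted p = 0.059), and the change stayed between −1.19 and −0.97. Odc1, ornithine decarboxylase, the enzyme one step upstream in polyamine synthesis, ranged from 8.09 through a median of 8.52 to 8.87 and changed by −0.44 ± 0.15 (adjusted p = 0.0947; with the block, 0.0373). Cad, the enzyme that starts pyrimidine synthesis, ranged from 8.10 through a median of 9.17 to 9.61 and changed by −0.27 ± 0.26.

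Nme1 measured 8.10, 8.42 and 8.34 at 0 h, 7.41, 6.71 and 7.39 at 6 h, 7.67, 7.44 and 6.59 at 12 h and 7.46, 7.40 and 7.86 at 18 h. The later Nme1 arrays gave 6.71, 7.91 and 7.22 at 24 h, 7.45, 8.59 and 7.87 at 30 h, 7.53, 8.35 and 8.05 at 36 h, 7.55, 8.52 and 7.84 at 42 h and 7.68, 8.44 and 8.16 at 48 h. Nme1, a nucleoside diphosphate kinase, had no array of 6 h to 24 h that reached a 0 h array, and the 30 h to 48 h arrays of experiment 2 were back at 8.35 or more. Of its 27 arrays 3 were below 6.77. It changed by −1.12 ± 0.35 (adjusted p = 0.0644; with the block, 0.0137) at 6 h and by −1.01 ± 0.35 (adjusted p = 0.0929; with the block, 0.0232) at 24 h. A second probe set of Nme1 of nearly the same brightness gave 0.10 ± 0.39 at 6 h, so the 2 probe sets of this gene disagree. Nme2 measured 13.11, 13.11 and 13.17 at 0 h, 13.32, 13.31 and 13.07 at 6 h, 12.83, 13.10 and 12.85 at 12 h and 12.94, 12.80 and 12.80 at 18 h. The later Nme2 arrays gave 12.91, 12.85 and 12.82 at 24 h, 13.15, 13.22 and 12.91 at 30 h, 13.09, 12.96 and 12.84 at 36 h, 13.08, 13.11 and 12.75 at 42 h and 13.18, 13.20 and 12.90 at 48 h. Nme2, its close paralog, moved little, with a change of 0.10 ± 0.11 at 6 h, and its arrays of 12 h, 18 h and 24 h were all below those of 0 h. At 24 h it changed by −0.27 ± 0.11 (adjusted p = 0.188; with the block, 0.0249). Probes for such close paralogs may not fully tell them apart.

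Both genes of nuclear transport were lower at 6 h, and both fell with the block. Ran measured 13.42, 13.85 and 13.60 at 0 h, 12.89, 13.27 and 13.05 at 6 h, 12.87, 12.97 and 12.68 at 12 h and 12.92, 13.02 and 12.76 at 18 h. The later Ran arrays gave 12.97, 13.11 and 12.71 at 24 h, 12.84, 13.33 and 13.08 at 30 h, 12.93, 13.43 and 12.98 at 36 h, 13.06, 13.47 and 12.80 at 42 h and 12.98, 13.42 and 12.90 at 48 h. Ran, the GTPase that drives nuclear export of subunits, had no array of 6 h to 24 h that reached a 0 h array, and its mean was lowest at 12 h. It changed by −0.55 ± 0.18 (adjusted p = 0.0731; with the block, 0.000316) at 6 h and fell by 0.78 ± 0.18 at 12 h (adjusted p = 0.00753), fell by 0.72 ± 0.18 at 18 h (adjusted p = 0.0138) and fell by 0.69 ± 0.18 at 24 h (adjusted p = 0.0194). The 12 h call was lost without experiment 3 (adjusted p = 0.171), and the 24 h call without experiment 1 (adjusted p = 0.0707) or experiment 3 (adjusted p = 0.325). With the block Ran was lower than at 0 h at all 8 later times, at 48 h by −0.52 ± 0.18 (adjusted p = 0.000405, against 0.0807), or 69.6% of the 0 h level. Ranbp1 measured 10.48, 9.92 and 9.96 at 0 h, 10.01, 9.36 and 9.29 at 6 h, 9.85, 9.52 and 9.36 at 12 h and 9.83, 9.39 and 9.23 at 18 h. The later Ranbp1 arrays gave 9.97, 9.80 and 9.40 at 24 h, 9.98, 9.44 and 9.78 at 30 h, 10.11, 9.88 and 9.97 at 36 h, 10.04, 10.14 and 9.71 at 42 h and 9.95, 10.01 and 9.67 at 48 h. Ranbp1, a cofactor of Ran, was lower at 6 h in every experiment and overlapped 0 h through experiment 1, and the 42 h array of experiment 2, at 10.14, stood above its own 0 h array. It changed by −0.57 ± 0.22 (adjusted p = 0.141; with the block, 0.00624) at 6 h.

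Of the other 4 measured members, Abcf2 fell at 6 h without the block, and Abcf2 and Abce1 fell with it. Abcf2 measured 9.78, 9.29 and 8.92 at 0 h, 8.06, 6.71 and 5.98 at 6 h, 7.74, 6.56 and 7.82 at 12 h and 8.66, 6.82 and 7.90 at 18 h. The later Abcf2 arrays gave 8.90, 8.41 and 7.86 at 24 h, 8.43, 8.98 and 7.99 at 30 h, 8.30, 7.91 and 7.11 at 36 h, 9.06, 8.49 and 7.23 at 42 h and 8.65, 8.07 and 7.94 at 48 h. Abcf2, a protein of the ATP-binding cassette class without a membrane domain, was lower than at 0 h on every later array of its own experiment. Its 6 h arrays did not reach 0 h, and 3 of 27 arrays were below 6.77, so the size of the drop is uncertain. It fell by 2.42 ± 0.53 at 6 h (adjusted p = 0.00576), to 18.7% of the 0 h level, and fell by 1.96 ± 0.53 at 12 h (adjusted p = 0.0219). The 6 h call was lost without experiment 2 (adjusted p = 0.129) or experiment 3 (adjusted p = 0.105), as was the 12 h call, at 0.309 and 0.0583. A second probe set of Abcf2, too dim to test at a mean of 5.11, went the other way, by 1.30 at 6 h and 0.94 at 48 h.

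Abce1 measured 9.97, 9.58 and 9.64 at 0 h, 9.41, 8.65 and 9.10 at 6 h, 10.01, 9.11 and 9.38 at 12 h and 9.77, 9.57 and 9.40 at 18 h. The later Abce1 arrays gave 9.99, 9.52 and 9.33 at 24 h, 9.80, 9.55 and 9.59 at 30 h, 9.58, 9.75 and 9.47 at 36 h, 10.0, 9.57 and 9.57 at 42 h and 9.82, 9.75 and 9.48 at 48 h. Abce1, which recycles ribosomes, was lower at 6 h in every experiment without overlap with 0 h, and at 12 h the array of experiment 1 stood above all 0 h arrays while those of experiments 2 and 3 stood below them. Its change at 6 h was −0.68 ± 0.22 (adjusted p = 0.0727; with the block, 0.00241) and at 12 h −0.23 ± 0.22. Tfrc, the transferrin receptor, ranged from 9.88 through a median of 10.82 to 12.05 and changed by −0.45 ± 0.52 at 6 h, and was called over time with the block (adjusted p = 0.01). Cdk7, the kinase of the general transcription factor TFIIH, ranged from 6.69 through a median of 7.62 to 8.05 and changed by −0.13 ± 0.31.

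**Figure D4:**
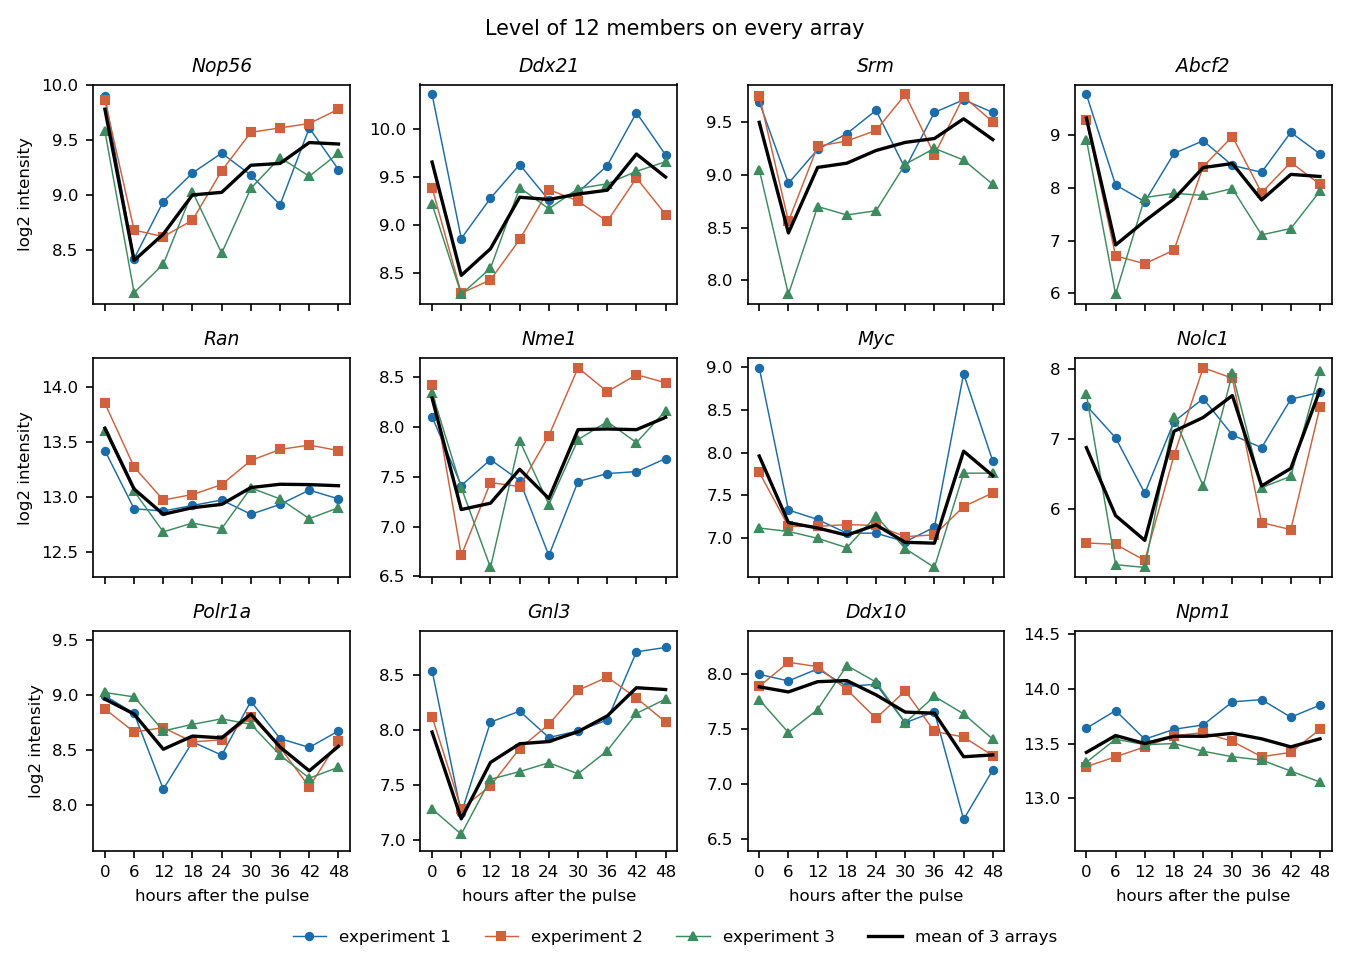
Log2 intensity of 12 members on every array (y axis, each panel with its own range of at least 2 log2 units) against hours after the pulse (x axis), with 1 coloured line per experiment and the mean of 3 arrays in black. Nop56, Ddx21, Srm and Abcf2 dip at 6 h in all 3 experiments, Ran stays low to 48 h, Ddx10 falls late, and Npm1 holds between 13.15 and 13.90.

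The course after 6 h was measured as a linear slope over the 24 arrays from 6 h to 48 h, in log2 units per day. The fit also held a 24 h wave. The median slope of the members was 0.14, against 0 over all genes, and 37 of 45 slopes were above 0. Gnl3, Nme1, Nop56, Nop58, Rrs1 and Ddx21 rose, which is 6 of 45 (2.85% of all genes), and Ddx10 fell (3.76%). With the block 15 rose (8.29%), among them Abce1, Cad, Ebna1bp2, Ftsj3, Pa2g4, Ran, Ranbp1, Srm and Utp20, and Ddx10 fell (10.1%). Nme1 had the steepest slope at 0.64 ± 0.17 (adjusted p = 0.0215), which was 0.41 without experiment 2. That slope was read from 1 of the 2 Nme1 probe sets that disagree at 6 h. With the mean of a gene's probe sets and no block, 5 members rose and 1 fell (6.59% of all genes called in either direction). Nop56 rose by 0.59 ± 0.12 (adjusted p = 0.00258), Gnl3 by 0.56 ± 0.11 (adjusted p = 0.00323) and Ddx10 fell, at −0.40 ± 0.11 (adjusted p = 0.0288). Of the 7 calls 0 remained without experiment 3 and only that of Ddx21 without experiment 2, and that of Ddx10 was also lost without experiment 1 (adjusted p = 0.114). Of all genes 0.585% were called without experiment 3 and 1.35% without experiment 2, in either direction. With the block 7 members were called without experiment 3 (6.75% of all genes) and 8 without experiment 2 (8.51%).

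The slopes do not all mean a full return, since 31 of 45 members were still lower than at 0 h at 48 h, with a median change of −0.15. Gnl3 at 48 h was 0.39 ± 0.28 from its 0 h level, Rrs1 0.39 ± 0.24 and Nop58 0.06 ± 0.22, none of them called in either fit. With the block Bop1, Nhp2, Ran and Abcf2 were called lower than at 0 h both at 6 h and at 48 h, and Ddx10 and Polr1a at 48 h but not at 6 h. In that fit 7.12% of all genes fell at 6 h and 9.59% at 48 h. The share of all genes called at both times was not counted, and both comparisons use the same 0 h arrays. When the 0 h arrays were left aside, 0 members varied between the 8 times from 6 h on (1.42% of all genes), 9 at an unadjusted p below 0.05 in limma, and 14 with the block (13.3%).

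**Figure D5:**
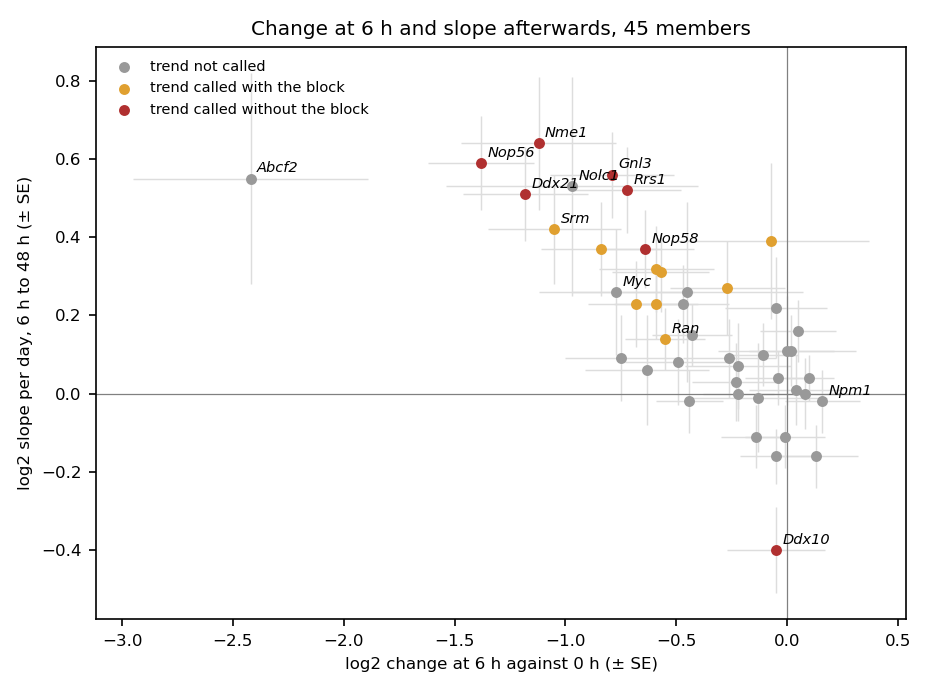
Log2 change at 6 h against 0 h (x axis) and log2 slope per day from 6 h to 48 h (y axis) for each of the 45 members, with bars of ± SE and colours for the limma call of the slope. The 6 h arrays enter both axes, so the points lean to the upper left by construction in part; Ddx10 stands alone at a slope of −0.40.

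A 24 h rhythm was not called for any member with or without the block (0% of all genes), and at an unadjusted p below 0.05 limma gave 3 members against 192 genes, or 11 against 603 with the block. The 3 were Nolc1, Polr1a and Nme2. Nolc1 had the largest amplitude, 0.65, against a median of 0.10 over members and 0.09 over all genes, and its adjusted p was 1 (with the block, 0.345). Between 48 h and 24 h, 1 cycle apart, 0 members were called in either direction in either fit (0.0354% of all genes lower and 0% higher), 2 at an unadjusted p below 0.05 against 267 genes.

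Genes of related function were counted beside the members, in lists given here and in the next paragraph. For comparison, 2.53% of all genes fell and 4.11% rose at 6 h, or 7.12% and 10.9% with the block. At 24 h 2.91% fell and 4.43% rose without the block. Of 56 measured ribosome biogenesis factors outside the list, 1 fell at 6 h, 0 rose and 55 were not called, with a median change of −0.09, and with the block 7 fell and 3 rose. The 1 was Rrp1b, a paralog of Rrp1, which fell by 1.24 ± 0.18 (adjusted p = 9.79e-05) and fell by 1.07 ± 0.18 at 24 h. Of 28 other known MYC targets 2 fell at 6 h and 0 rose, with a median of −0.32 and 24 of 28 below 0, and with the block 7 fell. Hprt, of purine salvage, fell by 0.61 ± 0.12 (adjusted p = 0.0032), and Eif3b, an initiation factor subunit, fell by 0.61 ± 0.18 (adjusted p = 0.0393). At 24 h Mthfd2, of mitochondrial folate metabolism, fell by 1.16 ± 0.33 (adjusted p = 0.0355) and Bcat1, a transaminase of branched-chain amino acids, fell by 1.10 ± 0.33 (adjusted p = 0.0472).

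Of 17 genes of RNA polymerase I and III transcription, Ubtf, which binds ribosomal DNA promoters, fell by 0.61 ± 0.14 at 6 h (adjusted p = 0.0095) and Znrd1, a small subunit of polymerase I, rose by 0.48 ± 0.13 (adjusted p = 0.0252), with a median of −0.03 over the list. In the MYC, MAX and MXD network 0 of 8 were called at 6 h in either fit, 0 at an unadjusted p below 0.05 in limma, with a median of −0.04. Among 8 genes that MYC represses, 1 fell and 2 rose at 6 h, with a median of 0.10. Klf6 rose by 1.09 ± 0.20 (adjusted p = 0.000984), Gas1 by 0.31 ± 0.09 (adjusted p = 0.0491), and Gadd45b fell by 1.30 ± 0.29 (adjusted p = 0.00599). At 24 h Ndrg1 rose by 0.34 ± 0.10. Among 8 neighbours of Odc1, Srm and Cad in metabolism, 1 fell and 0 rose at 6 h, with a median of −0.14, and with the block 3 fell and 2 rose. Azin1, an activator of ornithine decarboxylase, fell by 1.38 ± 0.24 at 6 h (adjusted p = 0.000664) and fell by 1.12 ± 0.24 at 24 h. Of 27 cytosolic ribosomal protein genes 0 were called at 6 h in either fit, 2 at an unadjusted p below 0.05 in limma. Their changes lay between −0.42 and 0.37, with a median of 0.03.

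The members did not share 1 profile. Over the 27 arrays, which share experiment and scaling, Pearson's r between pairs of members had a median of 0.13 and ran from −0.67 to 0.88, with 651 of 990 pairs above 0. With the mean of the other members' standardized profiles, r was 0.90 for Nop56, 0.81 for Srm, 0.79 for Abcf2 and 0.77 for Nop58, and 0.36 for Myc. It was below 0 for Ddx10 at −0.35, Tcof1 at −0.27, Cdk7 at −0.21, Pes1 at −0.12, Polr1c at −0.11, Nip7 at −0.08, Polr1b at −0.07 and Polr1a at −0.06. Outside the list, the genes closest to the members' mean profile over the 27 arrays were Sec13 (r = 0.90), Actn1 (0.87), Serp1 (0.86), Slc35b1 (0.84) and Pno1 (0.83). Sec13 changed by −1.59 ± 0.24 at 6 h (adjusted p = 0.000155), Serp1 by −0.88 ± 0.16 (adjusted p = 0.0013) and Slc35b1 by −0.65 ± 0.18 (adjusted p = 0.0288). Actn1 changed by −0.36 ± 0.15 (adjusted p = 0.199; with the block, 0.00691) and Pno1 by −0.60 ± 0.18 (adjusted p = 0.0512; with the block, 0.00342).

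Of 64 probe sets of the members 49 were bright enough to test, and each gene was read from its brightest one. Polr1c, Mybbp1a, Ddx18 and Nme1 had 2 such probe sets. At 6 h the dimmer ones gave −0.10 ± 0.26 against 0.13 ± 0.19 for Polr1c, 0.18 ± 0.50 against −0.22 ± 0.24 for Mybbp1a, and −0.15 ± 0.23 against 0.02 ± 0.19 for Ddx18. These pairs differ by less than their errors, unlike the pair of Nme1. Probe sets too dim to test were left out of this comparison, among them the second ones of Abcf2 and Ftsj3 given above. The probe sets used for Nop58, Srm, Polr1b, Nme1 and Mybbp1a are of the class that can share probes with a sequence family, so their level may include a related transcript.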

How the data were processed

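Total RNA from 27 samples, 3 experiments at each of 9 times, was hybridised to Affymetrix mouse U74v2 arrays. What the authors deposited is a linear intensity per probe set and array. The summary algorithm and software are not given in the sources used here. Per array, the 2% trimmed mean of the deposited intensities was 500.28 to 500.35 and the median 166.8 to 200.6, and 0 pairs of arrays were identical.

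A pseudocount of 12.1, the 10th percentile, was added to the deposited intensity before taking log2, which understates changes of dim probe sets. Quantile normalization followed, since array medians differed by up to 0.25 (log2), more than the 0.2 allowed. Of 12488 probe sets, 66 controls (3 of them annotated to Tfrc) and the dimmest 40% were dropped, leaving 7453 with mean log2 of at least 6.77. Names came from the platform annotation where it gave 1 symbol, and each of the 5643 genes was read from its brightest probe set.

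All tests used limma 3.58.1 (R 4.3.3; eBayes with an intensity-dependent prior), adjusted by Benjamini-Hochberg across the 7453. The 9 time means gave the contrasts and the F test, and a line plus a 24 h cosine and sine, fitted from 6 h on, gave slope and rhythm. Deviations from the time means correlated in every pair of arrays of an experiment, with r of 0.426 to 0.642, 0.349 to 0.599 and 0.135 to 0.482 in experiments 1, 2 and 3 over 36 pairs each, so the experiment numbers pair the samples. They were added as a block in an alternative fit. Further alternatives changed scaling, pseudocount, filter, variance model, array weights, probe set choice, times and replicates.

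Members and lists were chosen with earlier results of these data known, and the ribosomal protein list was added with the values at hand. Members given on every array were Myc and those called against 0 h with a change of at least 1 (log2) or called in another comparison, in either fit, limited to the 20 smallest F test p-values, plus the 3 with the largest. Other lists gave up to 3 called genes each at 6 h and 24 h, and the 5 genes most like the members' mean profile were named. In simulated data for 6 h against 0 h with 7453 probe sets, 59.7% of changes of 1 (log2) were called without the block and 86.6% with it. There 67 probe sets changed by 0.5, 67 by 1 and 66 by 2, numbers that were not matched to these data.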

Additional observations from a re-analysis of the deposited data

How the results depend on the processing

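Of 20 single member values called without the block over time, at 6 h, 12 h and 24 h and for the trend, 0 reversed under any alternative run, and 215 of 276 recalculations kept the call. The calls at 18 h (Nop56 and Ran) and 42 h (Polr1a) were refitted only with the block. The experiment as a replicate block moved the count of called members from 2 to 22 over time, from 4 to 18 at 6 h, from 6 to 13 at 12 h, from 1 to 6 at 24 h, from 0 to 6 at 48 h and from 7 to 16 for the trend. It also moved the counts at 18 h, 30 h, 36 h and 42 h and over time from 6 h on. Leaving out 1 experiment gave 0 to 3 over time, 1 to 5 at 6 h, 0 to 6 at 12 h, 0 to 1 at 24 h, 0 to 1 at 48 h and 0 to 9 for the trend. The lowest counts came without experiment 2 or 3, except at 24 h, where leaving out experiment 1 or 3 gave 0, and at 48 h. At 6 h the share of all genes called was also lower without experiment 2 (2.18%) or 3 (1.68%) than on all arrays (6.65%). Leaving out 1 experiment within the blocked fit, a refit chosen after seeing the data, gave 5 to 13, 8 to 17, 6 to 9, 2 to 6, 3 to 4 and 7 to 16 in that order. Array weights gave 10 over time (16.4% of all genes), 16 at 6 h (11.5%), 3 at 24 h (11.6%) and 2 at 48 h (12.9%). Over time the count was 0 from 6 h on, and 1 with a pseudocount of 50, without the filter, without the intensity trend and without the 18 h and 30 h arrays of experiment 1. At 12 h it was 3 with arrays centred on their median and 3 without the filter. At 24 h it was 0 with arrays centred on their median and 2 with the filter at the 60th percentile. The counts at 48 h against 24 h and for the 24 h rhythm were 0 under every alternative run. The cause of these shifts was not tested, apart from refits on fewer arrays. With 3 arrays per time, changes of 0.5 on the log2 scale at 6 h were called in 5.97% of simulated cases without the block and 35.8% with it. Small changes of members can therefore go uncalled. These rates hold for the number of changed probe sets set in the simulation and do not give the power in these data.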
